A study of Canis lupus familiaris with 15 samples.

Results

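Transcripts of 8 genes that mark T lymphocytes and natural killer (NK) cells, or that these cells use to act on others, were followed across 15 canine samples: CD4, CD8A, CD28, KLRD1, CD52, SLAMF1, FASLG and IFNG. The genes were chosen by name, to ask which samples hold helper, cytotoxic or NK cells and whether the effector genes go along, and a probe was taken for a gene where its RefSeq identifier on the array belongs to it. This gave 9 probes for the 8 genes, of 1357 genes that could be named on the array. Levels are log2 processed signal relative to the 75th percentile of the array, so that 0 is the signal at that percentile of the spots of the array, and a level is compared only with the same gene on other arrays.

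The samples came from 5 dogs with lymphoma, 1 array each. Skin biopsies of MalcolmX and Rosco (2 arrays) served as control tissue. Drug-resistant tumours were sampled by biopsy in MalcolmX, Jake, Rosco and Dog Y (4 arrays), and the labels call the biopsies of Rosco and Dog Y pre-treatment as well. A drug-sensitive tumour of Thai, titled naive, gave 1 biopsy array. MalcolmX gave 1 needle aspirate of the resistant tumour after metformin, a drug for type II diabetes. Rosco gave 1 aspirate after chemotherapy had failed and before metformin (its title names CHOP, a combination chemotherapy), 1 aspirate in remission after metformin, 3 aspirates after metformin and relapse (titled no remission), 1 aspirate of a second resistant tumour, and 1 post-mortem piece of tumour. Breed, age and lymphoma subtype were not given in the sources used here, and 9 of the 15 samples are from Rosco. With 1 array per sample and several samples per dog, p-values measure the spread between these arrays, and in the comparisons within Rosco they say nothing of other dogs.

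T lymphocytes fall into helper cells, which carry CD4 and steer other immune cells through cytokines and CD40 ligand, and cytotoxic cells, which carry CD8 and kill target cells with perforin, granzymes and Fas ligand. Both need a second signal through CD28 when their antigen receptor is engaged. NK cells kill without an antigen receptor and carry paired inhibitory and activating receptors, among them CD94, the product of KLRD1, and both NK and T cells release interferon gamma. In lymphoma these cells are part of the tumour's surroundings, unless the tumour itself arose from T or NK cells.

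The labelled tissues were checked against other cell types. MS4A1, the B cell antigen CD20, was well above background in 12 of 15 arrays and not well above it in the Rosco skin and in 2 arrays labelled tumour, Rosco's first biopsy (−7.16) and Rosco's second resistant aspirate (−6.73). These 2 tumour arrays held the highest levels of CA6, a carbonic anhydrase secreted by salivary glands, at 8.59 and 8.99, against at most 1.45 elsewhere. Of the T lineage list, which holds the CD3 chains and the antigen receptor genes, 2 of 26 genes, CD4 and CD8A, could be named here, so the T cell label rests on the genes described. Per array, 66.8% to 75.9% of the probes rose well above background. Because the samples are bulk tissue, fewer cells of a type and less RNA of a gene per cell cannot be told apart.

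Of the 8 genes, CD4 and CD8A were well above background on all 15 arrays, KLRD1 and SLAMF1 on 13, CD52 and FASLG on 12, CD28 on 8 and IFNG on 2. Rosco's aspirates after failed chemotherapy and in remission stood above the other 13 arrays for 4 genes: CD8A, CD28, CD52 and SLAMF1. The sensitive tumour of Thai was highest of the 15 for IFNG, and second only to the remission aspirate for KLRD1. FASLG and CD4 followed neither of these patterns.

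**Figure D1:**
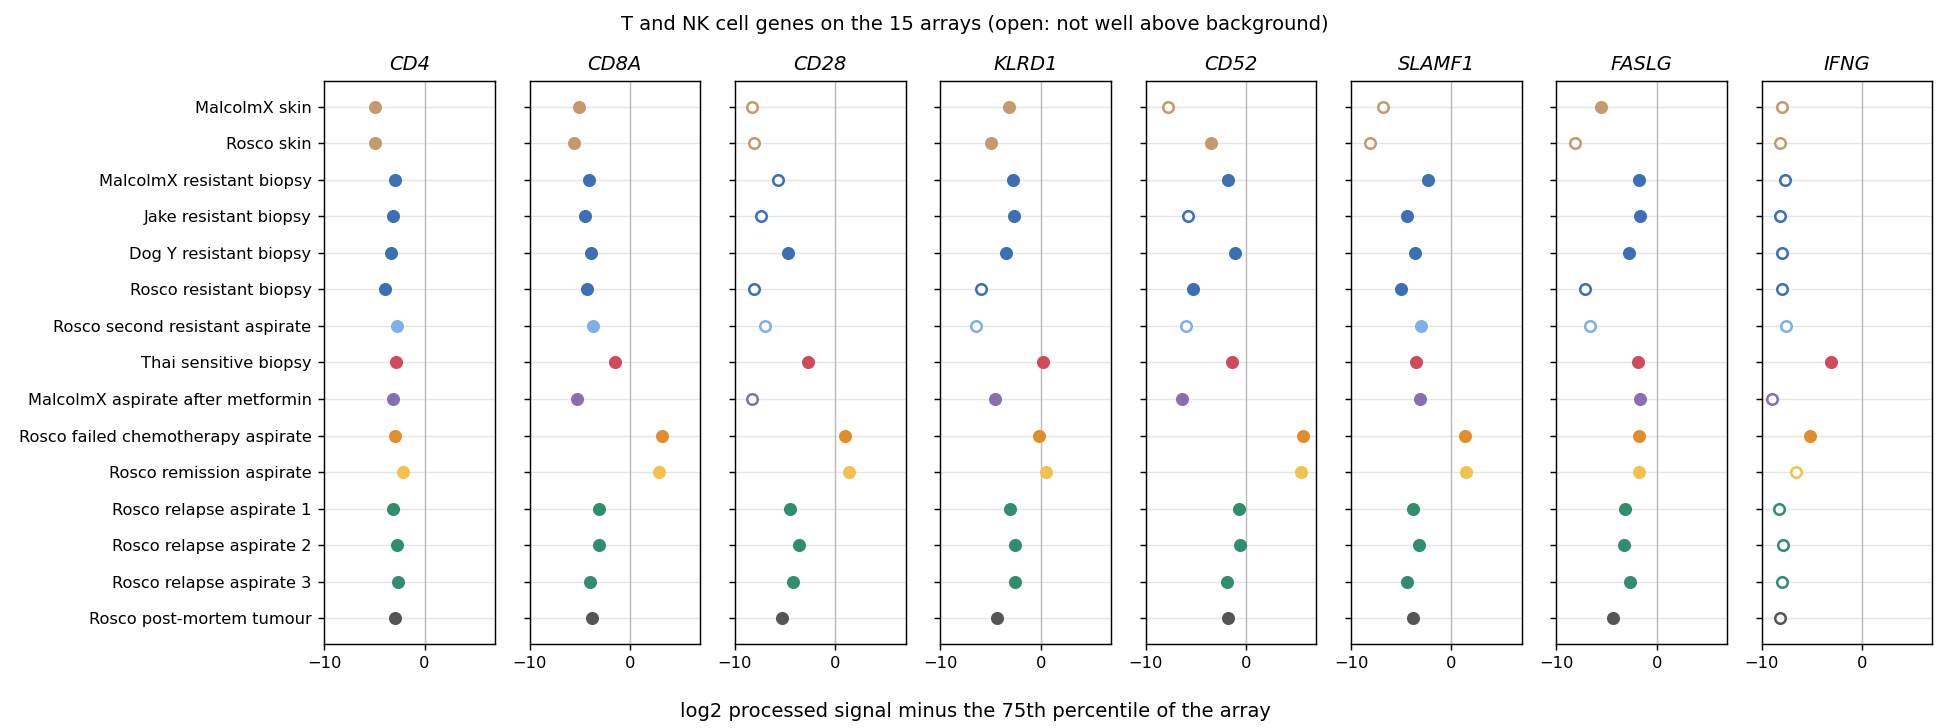
Level of each of the 8 genes (log2 processed signal minus the 75th percentile of the array, x axis) on each of the 15 arrays (rows, coloured by group). Filled points were well above background and open points were not; CD8A, CD28, CD52 and SLAMF1 lie farthest right after failed chemotherapy and in remission, and IFNG in the Thai biopsy.

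CD8A encodes the alpha chain of CD8, the coreceptor of cytotoxic T cells. Its level was 3.21 in the failed chemotherapy aspirate and 2.89 in the remission aspirate. The next array in order was the Thai biopsy at −1.53, which leaves a gap of 4.43, and the other 12 arrays ran from −5.60 to −3.04. Within this lower part, the relapse aspirates were at −3.10, −3.04 and −3.97, the resistant biopsies of MalcolmX, Jake, Rosco and Dog Y at −4.09, −4.44, −4.28 and −3.91, the post-mortem tumour at −3.77, the second resistant aspirate at −3.72, and the MalcolmX aspirate at −5.28. The skin samples were at −5.11 and −5.60. Of the 14 neighbouring pairs in the order of the 15 arrays, 10 lay closer than the SD of the 3 relapse aspirates (0.52), so the order below Thai is mostly within that spread.

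CD4 encodes the coreceptor of helper T cells, and in dogs neutrophils carry it as well. Its highest level was −2.11 in the remission aspirate, and the failed chemotherapy aspirate, at −2.98, lay in the middle of the tumour arrays. The relapse aspirates were at −3.18, −2.72 and −2.66, the Thai biopsy at −2.83, and the resistant biopsies of MalcolmX, Jake, Rosco and Dog Y at −2.93, −3.17, −3.96 and −3.34. Skin was lowest, at −4.91 and −4.90, and the widest gap in the order, 0.93, separated the first biopsy of Rosco from skin. Among neighbouring pairs, 11 of 14 were closer than the SD of the relapse aspirates (0.28). In the remission aspirate the neutrophil genes S100A8 (4.32), a subunit of calprotectin, and CXCL8 (−0.01), a neutrophil chemoattractant, were at their highest of the 15 arrays. The summed level of 7 named genes of an 18-gene neutrophil list was 4.63 there, the highest of the 15 arrays, and 2.88 in the failed chemotherapy aspirate. High sums were not limited to arrays with high CD4. Rosco's second resistant aspirate had a sum of 4.07 (CD4 −2.74), Rosco's resistant biopsy 3.85 (CD4 −3.96) and Rosco's skin 3.06 (CD4 −4.90). Relapse aspirate 3, second highest for CD4, had a sum of 0.35. The part of neutrophils in the CD4 level was not tested.

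CD28, the costimulatory receptor of T cells, was at 1.00 after failed chemotherapy and 1.41 in remission, 3.72 above the Thai biopsy at −2.72. The relapse aspirates were at −4.52, −3.66 and −4.24, the post-mortem tumour at −5.32 and the Dog Y biopsy at −4.69. On the other 7 arrays, which are both skin samples, the remaining resistant biopsies, the second resistant aspirate and the MalcolmX aspirate, CD28 was not well above background.

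KLRD1, the CD94 chain of the NK cell receptors that read nonclassical class I molecules, is also carried by some cytotoxic T cells. It was high on 3 arrays: the remission aspirate at 0.57, the Thai biopsy at 0.19 and the failed chemotherapy aspirate at −0.12. The next was relapse aspirate 2 at −2.54, a gap of 2.42, followed closely by relapse aspirate 3 at −2.56. The resistant biopsies of Jake, MalcolmX and Dog Y were at −2.67, −2.73 and −3.46, while KLRD1 was not well above background in either of the Rosco arrays rich in CA6. The MalcolmX skin, at −3.20, lay among the tumour samples and the Rosco skin at −4.92 below most of them. NCR1, the activating receptor NKp46 and a more restricted NK cell marker, did not share these high values: it was not well above background after failed chemotherapy (−6.32) or in remission (−5.73), and its highest level was −4.32 in the Thai biopsy.

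CD52, a small glycosylphosphatidylinositol-anchored glycoprotein of lymphocytes and monocytes and the target of alemtuzumab, spanned the widest range of the 8 genes, 13.46. It reached 5.66 after failed chemotherapy and 5.45 in remission, 6.01 above the next array. The relapse aspirates followed at −0.70, −0.56 and −1.89, then Dog Y at −1.11, Thai at −1.36, the MalcolmX biopsy at −1.80 and the post-mortem tumour at −1.81, with overlap between these groups. The first biopsy of Rosco, at −5.29, and the MalcolmX aspirate, at −6.43, lay near background. CD52 was not well above background in the MalcolmX skin, the Jake biopsy or the second resistant aspirate, but stood at −3.49 in the Rosco skin.

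SLAMF1 encodes a self-binding receptor of activated T cells, B cells and macrophages. It was at 1.32 after failed chemotherapy and 1.43 in remission. The other 13 arrays began 3.64 lower, with the MalcolmX biopsy at −2.32, the second resistant aspirate at −3.01 and the MalcolmX aspirate at −3.12, and included the relapse aspirates at −3.87, −3.20 and −4.38 and the Thai biopsy at −3.49. Both skin arrays were not well above background.

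FASLG encodes the death ligand of cytotoxic T and NK cells, and its order among the arrays was another one. The highest levels were −1.66 in the Jake biopsy, −1.69 in the MalcolmX aspirate, −1.75 in the MalcolmX biopsy, −1.78 after failed chemotherapy, −1.79 in remission and −1.91 in the Thai biopsy. These 6 arrays from 4 dogs lay within a range narrower than the SD of the relapse aspirates (0.36). The relapse aspirates were at −3.15, −3.32 and −2.63, Dog Y at −2.74, the post-mortem tumour at −4.37 and the MalcolmX skin at −5.52, and FASLG was not well above background in the Rosco skin, the first biopsy of Rosco or the second resistant aspirate. The MalcolmX aspirate thus held one of the highest FASLG levels beside the second lowest CD8A level.

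IFNG encodes interferon gamma, the cytokine of helper, cytotoxic and NK cells that activates macrophages and raises antigen presentation. It was well above background on 2 arrays, the Thai biopsy at −3.15 and the failed chemotherapy aspirate at −5.22. The remission aspirate (−6.55) and the other 12 arrays (−8.97 to −7.62) gave only an upper bound. Thai was also highest for IL21 (−1.55), a cytokine of follicular helper T cells, for CXCL10 (4.06), a chemokine induced by interferon gamma, and for CCL3 (−0.10), a chemokine released by activated macrophages and T cells. In the failed chemotherapy aspirate CXCL10 stood at −0.30, beside −0.27, −0.29 and 0.11 in the relapse aspirates.

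PRF1, perforin, the pore-forming protein of cytotoxic granules, was named on the array while the granzymes were not. It was at −1.78 after failed chemotherapy, −1.87 in remission and −2.00 in the Thai biopsy, and at most −3.56 on the other 12 arrays. Across the 15 arrays PRF1 followed CD8A with a Pearson r of 0.92 (Spearman rho 0.93), and over the 13 arrays without the failed chemotherapy and remission aspirates with 0.91 (rho 0.89). For FASLG and CD8A, r was 0.44 (rho 0.16), and 0.38 (rho 0.05) without these aspirates. For IFNG and CD8A, r was 0.65 (rho 0.62), and 0.74 (rho 0.43) over the 13 arrays. On those 13 IFNG was well above background only in the Thai biopsy, so this r rests on that array. These values describe arrays that share dogs, with 9 of 15 from Rosco, and dim genes contribute background signal to them.

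**Figure D2:**
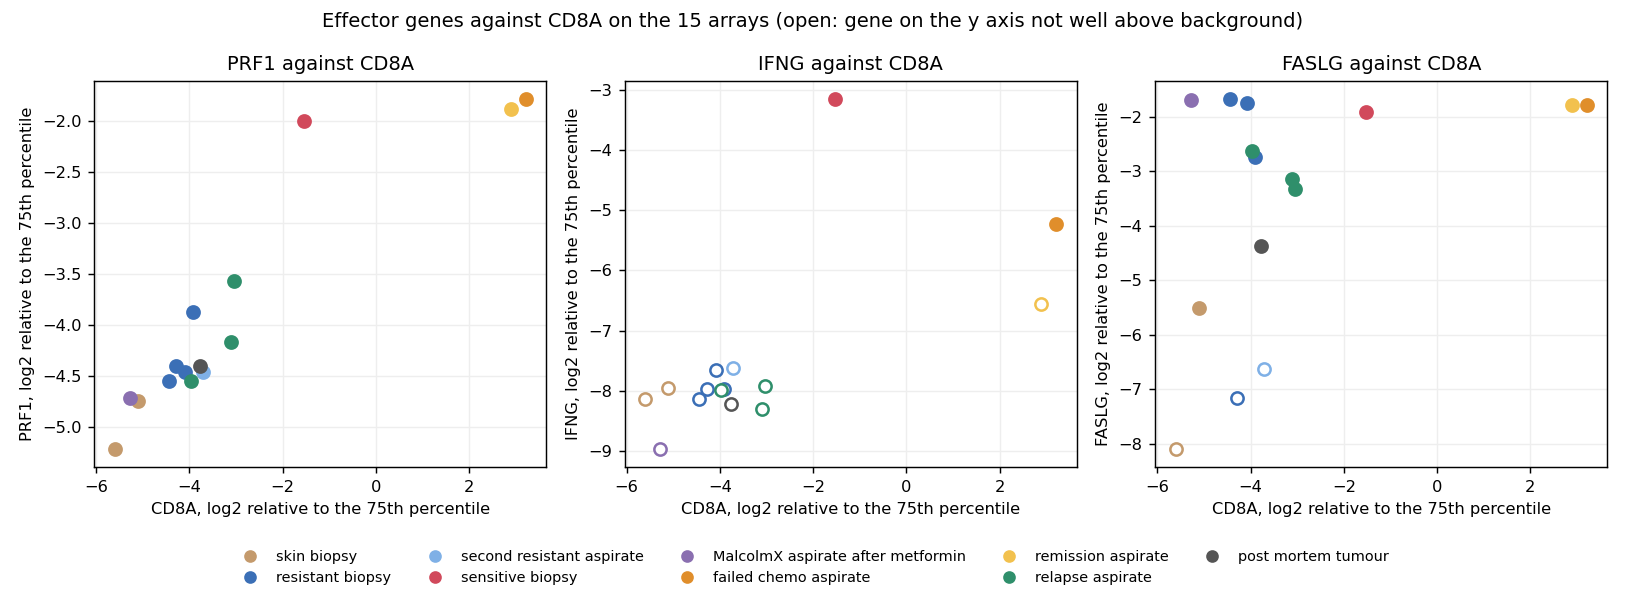
Levels of PRF1, IFNG and FASLG (y axes, log2 relative to the 75th percentile) against CD8A (x axis, same scale), 1 point per array, coloured by group; open points mark arrays on which the gene on the y axis was not well above background. The 3 arrays highest for CD8A are highest for PRF1, IFNG is well above background on 2 of them, and FASLG is at −1.69 on the array with the second lowest CD8A.

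The first tested comparison set Rosco's 3 relapse aspirates against the 2 aspirates taken after failed chemotherapy and in remission. These 2 are of unlike states, tumour before metformin and remission after it, and their mean and SD span both. All of the T and NK cell genes that passed the test were lower at relapse. CD8A fell from 3.05 ± 0.22 (SD, n = 2) to −3.37 ± 0.52 (SD, n = 3), CD52 from 5.56 ± 0.15 to −1.05 ± 0.73, CD28 from 1.20 ± 0.29 to −4.14 ± 0.44 and SLAMF1 from 1.38 ± 0.08 to −3.82 ± 0.59. KLRD1 fell less, from 0.22 ± 0.49 to −2.70 ± 0.26, and FASLG least, from −1.78 to −3.03 ± 0.36. CD4 was the exception, at −2.55 ± 0.61 before and −2.85 ± 0.28 at relapse, with the groups overlapping.

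By limma with Benjamini-Hochberg adjustment over 25382 targets tested, 33.7% of targets passed an adjusted p of 0.05 in either direction and 16.3% passed as lower. Of the 8 genes 7 were tested and 6 passed, all lower. The difference was −6.60 (SE 0.42, adjusted p 0.000390) for CD52, a 97.3-fold drop, and −6.42 (SE 0.33, adjusted p 0.000240) for CD8A, 85.8-fold, which ranked 23 and 27 by size among all targets tested. For CD28 it was −5.35 (SE 0.30, adjusted p 0.000305), for SLAMF1 −5.19 (SE 0.35, adjusted p 0.000437) and for KLRD1 −2.93 (SE 0.28, adjusted p 0.00112). FASLG differed by −1.25 (SE 0.25, adjusted p 0.0121), a change of which 4650 targets had one as large or larger, and CD4 by −0.30 (SE 0.32, adjusted p 0.503). In 6 genes the groups did not overlap, against 31.4% of all targets that were lower without overlap. IFNG was not tested, since it was above background on 1 of the 5 arrays.

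Each slide held arrays of both groups. CD8A was lower by −6.31 within slide 3 and −6.40 within slide 4, and CD52 by −6.37 and −6.67. With slide as a block the same 6 genes had adjusted p-values from 0.000667 to 0.0235. The FASLG call was lost within slide 4 (−1.19, adjusted p 0.179), without the failed chemotherapy aspirate (adjusted p 0.0695) and without the remission aspirate (adjusted p 0.0825). The CD4 difference became 0.13 without the remission aspirate.

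Other genes of T cell help changed beside them, in a comparison where 33.7% of all targets passed and 16.3% passed as lower. Of 9 named costimulation and checkpoint receptors, all tested, 5 fell and 2 rose: CD28, then CD40LG (−4.95, SE 0.61, adjusted p 0.00240), the helper cell signal to B cells, ICOS (−4.69, SE 0.41, adjusted p 0.000878), a costimulator of follicular helper cells, and CTLA4 (−3.66, SE 0.45, adjusted p 0.00239), the inhibitory counterpart of CD28, were the lower ones of largest size. IL2, the T cell growth factor, fell by 4.59 (SE 0.38, adjusted p 0.000740), the largest of 4 changes among 10 tested helper and effector cytokines, beside 33.7% of all targets. IL12RB2, the signalling chain of the interleukin 12 receptor on type 1 helper and NK cells, fell by 6.16 (SE 0.35, adjusted p 0.000305). Of the 8 helper subset genes, IL12RB2 among them, 4 fell and 1 rose. The one that rose was IL2RA, the high-affinity interleukin 2 receptor chain carried by regulatory and activated T cells and by some lymphomas (2.09, SE 0.20, adjusted p 0.00120).

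Of 6 named NK cell genes KLRD1 and IL2RB fell, IL2RB, a receptor chain for interleukins 2 and 15, by 2.55 (SE 0.27, adjusted p 0.00146), and 4 did not pass, a share near the 33.7% of all targets that passed. Of 6 cytotoxic granule and death ligand genes 3 fell: PRF1 by 2.27 (SE 0.31, adjusted p 0.00338), LTB, the membrane anchor of lymphotoxin, by 1.26 (SE 0.20, adjusted p 0.00532), and FASLG. Among 6 genes induced by interferon gamma 1 rose and 1 fell, again near that share. CD274, the ligand of the T cell inhibitor PD-1, rose by 2.57 (SE 0.41, adjusted p 0.00585) and TAP1, a peptide transporter of antigen presentation, fell by 0.83 (SE 0.18, adjusted p 0.0152).

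Some markers of other cell types passed in this comparison as well, where 33.7% of all targets passed and 16.3% passed as lower. MS4A1 rose by 1.70 (SE 0.22, adjusted p 0.00278), from 0.39 to 2.10, and CYBB, the phagocyte oxidase subunit, by 2.04 (SE 0.20, adjusted p 0.00125). Of 2 named B cell genes 1 passed as higher, and the other was lower without passing. Of 7 monocyte and macrophage genes 1 passed, with 5 higher and 2 lower (median 0.29). The summed level of the 7 named genes of a 21-gene monocyte and macrophage list was 2.12 and 2.50 before and 3.61 to 3.87 at relapse. Of 7 neutrophil genes 2 passed as lower and 1 as higher, with 1 higher and 6 lower in direction (median −2.25, against −0.08 over all targets). CAMP, an antimicrobial peptide of neutrophil granules, differed by −2.90 (SE 0.56, adjusted p 0.0112). THY1, which marks stromal cells and, in dogs, T cells as well, fell by 4.58 (SE 0.30, adjusted p 0.000418). The summed level of the 9 named genes of the fibroblast and matrix list was 7.29 and 7.55 before and 4.80 to 4.99 at relapse, with 3 genes lower and 1 higher past the threshold, and of 5 tested keratinocyte genes 3 fell. The part of cell makeup in the differences of the 8 genes was not tested.

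**Figure D3:**
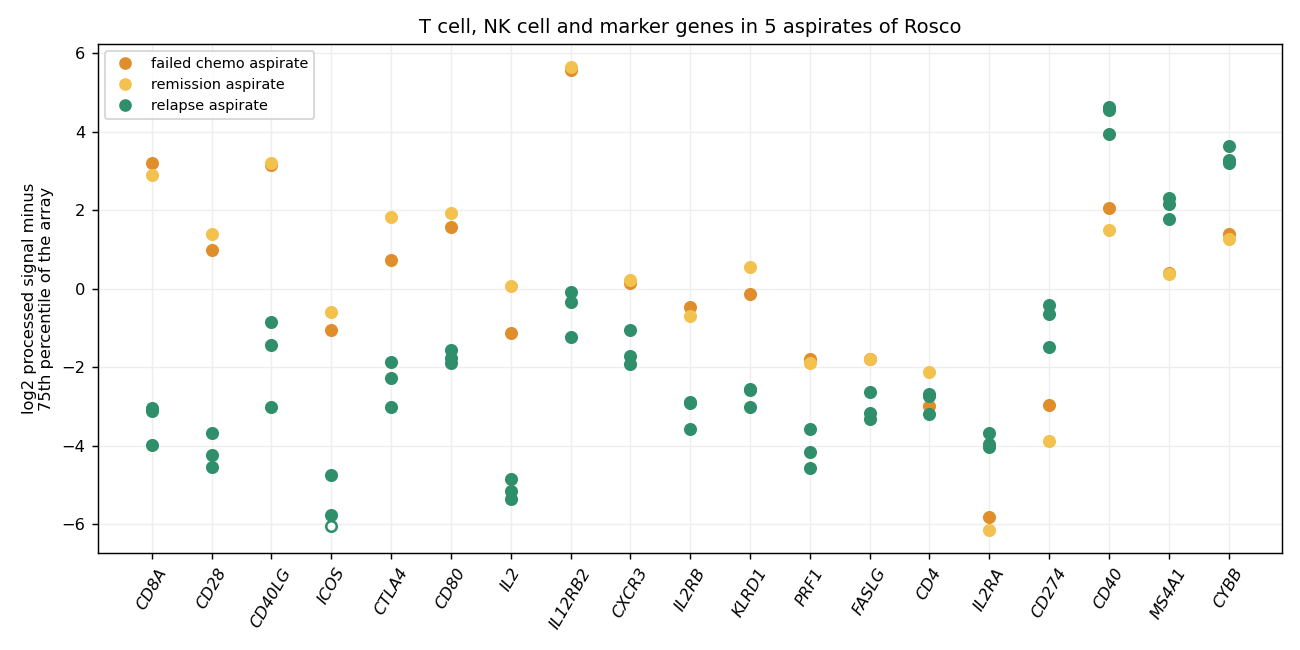
Levels (y axis, log2 processed signal minus the 75th percentile of the array) of T cell, NK cell and marker genes (x axis) in 5 aspirates of Rosco, 1 point per array; open points were not well above background. CD8A, CD28, KLRD1 and PRF1 lie higher after failed chemotherapy and in remission than in the 3 relapse aspirates, CD4 overlaps, and MS4A1 and CYBB lie lower.

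The second comparison set the sensitive tumour of Thai against the 4 resistant biopsies, the contrast of drug response in the labels. All 8 genes were tested and all 8 were higher in Thai, as were 55% of all targets, but none passed the adjusted threshold, as was the case for all 26372 targets tested by limma (0% called, and 2.98% at an unadjusted p under 0.05). IFNG was at −3.15 in Thai and not well above background in any resistant biopsy (−7.93 ± 0.21, SD, n = 4). This makes Thai at least 6.49-fold higher, with an adjusted p of 0.525 by limma. KLRD1 was higher by 3.88 (SE 1.34), CD28 by 3.74 (SE 1.36) and CD8A by 2.65 (SE 0.46), each with an adjusted p of 0.9996. IFNG, CD28, KLRD1, CD52 and FASLG entered the test only through the Thai array, since each missed background on at least 1 resistant biopsy, so the number of higher genes is in part set by the filter. CD28 was above background on only 1 of the 4 resistant biopsies, so the size of its difference rests in part on background signal (1.21 with normexp). CD4, CD8A and SLAMF1 were measured on all 5 arrays.

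The remaining genes differed less. CD52 was higher by 2.13 (SE 2.04), FASLG by 1.42 (SE 2.23), CD4 by 0.52 (SE 0.56) and SLAMF1 by 0.35 (SE 1.07), all with an adjusted p of 0.9996, and these differences depended on the first biopsy of Rosco. Without it FASLG was higher in Thai by 0.14, CD4 by 0.32 and CD52 by 1.54, and SLAMF1 differed by −0.05. Thai lay above all 4 resistant biopsies for 5 genes, CD4, CD8A, CD28, KLRD1 and IFNG, as it did for 20.4% of all targets. Of the lists, all 9 costimulation and checkpoint receptors and all 6 NK cell genes were higher in Thai, beside 55% of all targets, with none passing the test. CTLA4 (3.76, SE 2.17) led beside CD28, and IL2RB (1.32, SE 0.54) beside KLRD1. The resistant biopsies held 7 to 8 of these 9 receptors and 3 to 5 of these 6 NK cell genes above background, and Thai all of them. Some of these genes thus entered the test only through Thai, and these counts too are in part set by the filter. PRF1 was higher by 2.33 (SE 0.49), IL21 by 5.41 (SE 1.19), CXCL10 by 4.66 (SE 1.17) and CCL3 by 4.51 (SE 1.00), again with none passing. Other cell type lists moved too, with none passing: all 5 exocrine gland genes were lower in Thai (median −2.19) and 8 of 9 fibroblast and matrix genes (median −1.31), while both B cell genes (median 2.31) and 6 of 7 monocyte and macrophage genes (median 0.92) were higher. Of the B cell genes 1 missed background on a resistant biopsy, so it also entered the test only through Thai. One of the resistant biopsies is the array rich in CA6, and the part of these cell types in the Thai levels was not tested. The Thai array was on a slide and a scan day that held none of the 4 resistant biopsies, so slide, scan day, dog and drug response cannot be told apart.

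**Figure D4:**
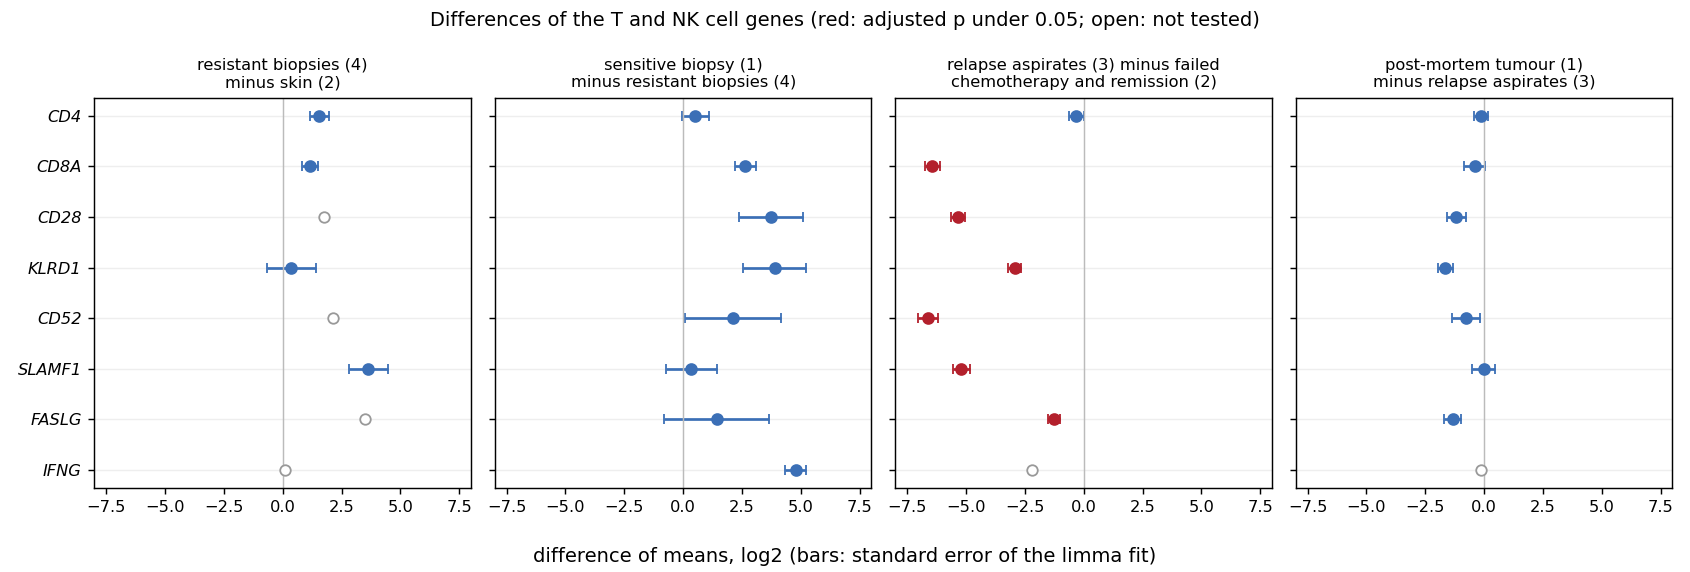
Difference of group means (x axis, log2) of the 8 genes in the 4 tested comparisons, with bars for the standard error of the limma fit; red points passed an adjusted p of 0.05 and open points were not tested. Genes that passed occur only in the comparison of relapse with failed chemotherapy and remission, where all 7 tested genes lie left of 0 and 6 passed. IFNG in the second panel and SLAMF1 in the first are set against arrays at background, so their size is not measured. CD28 in the second panel is set against resistant biopsies of which only 1 was above background.

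The 4 resistant biopsies were next set against the 2 skin biopsies, tumour against control tissue. All 4 genes that could be tested lay higher in tumour, as did 60.9% of all targets, and none passed. By limma 104 of 23954 targets passed (0.434%), 102 of them lower in tumour, and 5 of 9 keratinocyte genes were among these. SLAMF1 was at −3.84 ± 1.18 (SD, n = 4) in tumour and not well above background in skin, at least 4.31-fold higher (adjusted p 0.189). CD4 was higher by 1.55 (SE 0.40, adjusted p 0.223) and CD8A by 1.17 (SE 0.35, adjusted p 0.265). KLRD1 differed by 0.37 (SE 1.04, adjusted p 0.852) with overlap, and by −0.81 within slide 1 and 2.19 within slide 2. Of the 4 tested genes 3 were higher without overlap, beside 18.1% of all targets, and SLAMF1 was among the tested genes only through the tumour arrays.

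This comparison turned on the first biopsy of Rosco, the gland-rich tumour array. Without it 3126 of 24446 targets passed (12.8%, and 6.13% as higher), and CD4 was higher in tumour by 1.76 (adjusted p 0.0309). SLAMF1 (adjusted p 0.0317) and FASLG (adjusted p 0.0301) passed as well, but entered this test only through the tumour arrays: SLAMF1 was above background on neither skin array and FASLG on 1 of 2. FASLG was not among the tested genes while the low Rosco array was in. Between the dogs with both tissues and with dog as a fixed block, the differences were 1.46 for CD4 (adjusted p 0.608) and 1.17 for CD8A (adjusted p 0.685), and SLAMF1 had an adjusted p of 0.184.

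Rosco's post-mortem tumour was last set against the 3 relapse aspirates. All 7 tested genes were lower after death, while 54.5% of all targets were higher, and none of the 7 passed, in a comparison where limma called none of 27125 targets (0% called, and 15.2% at an unadjusted p under 0.05). KLRD1 was lower by −1.64 (SE 0.30, adjusted p 0.127), FASLG by −1.34 (SE 0.35, adjusted p 0.234) and CD28 by −1.18 (SE 0.40, adjusted p 0.296). These 3 lay below all relapse aspirates, as did 29.3% of all targets. CD52 differed by −0.76 (SE 0.59), CD8A by −0.40 (SE 0.45), CD4 by −0.13 (SE 0.31) and SLAMF1 by −0.02 (SE 0.50), all with overlap, and with slide as a block CD4 turned to 0.19 and SLAMF1 to 0.03. COL1A1, a fibrillar collagen of stroma, was higher after death by 4.10 (SE 0.41, adjusted p 0.0551) and CCL19, a chemokine that draws T cells into lymph nodes, by 3.14 (SE 0.32, adjusted p 0.0551). The part of stroma in the lower levels was not tested. This comparison shares the relapse aspirates with that of relapse against the earlier aspirates, and the comparisons with the sensitive tumour and with skin share the resistant biopsies.

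Pairs of single arrays have no replicate check. Between the failed chemotherapy aspirate and the remission aspirate of Rosco, which were taken before and after metformin, no gene of the 7 above background on both changed 2-fold, beside 3.04% of 24807 targets that were 2-fold higher and 1.48% lower in remission. CD4 was higher in remission by 0.87, KLRD1 by 0.69, CD28 by 0.40 and SLAMF1 by 0.11, while CD8A was lower by −0.32 and CD52 by −0.22 and FASLG stood within 0.01. IFNG, above background only before metformin, was at least 1.76-fold lower in remission. IL2 was at −1.12 before and 0.08 in remission.

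In MalcolmX the aspirate after metformin was set against the earlier biopsy, so treatment and the way of sampling cannot be told apart. Of the 6 genes above background on both arrays 3 were 2-fold lower in the aspirate, CD52 by −4.63 (24.7-fold), KLRD1 by −1.85 and CD8A by −1.19, beside 7.6% of 23183 targets that were 2-fold lower. CD52 in the aspirate (−6.43) lay near the lowest signal well above background on that array (−6.84), and its difference was −2.82 with normexp. The second CD8A probe stood at −3.85 in the biopsy and was not well above background in the aspirate (−8.53), so the size of the CD8A difference depended on the probe. SLAMF1 differed by −0.81, CD4 by −0.18 and FASLG by 0.06. MS4A1 stood at 3.18 in the biopsy and 3.21 in the aspirate, while the summed level of the neutrophil genes was 2.07 and −0.72 and that of 5 skeletal muscle genes −2.07 and 1.54. The part of these cell types was not tested.

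The first biopsy of Rosco and the second resistant aspirate, both gland-rich and without MS4A1 above background, had CD28, KLRD1, FASLG and IFNG not well above background on either; IFNG was so on 13 of the 15 arrays. Of the 3 genes measured on both, SLAMF1 was higher in the aspirate by 2.05 (4.14-fold) and CD4 by 1.22. For CD8A the probes differed in direction: the first read 0.56 higher in the aspirate (0.15 with quantile scaling), while the second stood at −5.39 in the biopsy and was not well above background in the aspirate (−6.29). Over all targets 7.9% of 23933 were 2-fold higher in the aspirate. The biopsy and the aspirate differ in tumour, way of sampling, slide and scan day, which cannot be told apart.

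The named genes whose levels ran most like each of the 8 over the 15 arrays, of 1107 candidates, were as follows. For CD8A they were ICOS (r 0.96), IL2 (0.96) and IL2RB (0.94), for CD28 ICOS (0.98), CD40LG (0.96) and IL2RB (0.95), and for CD52 CD40LG (0.96), ICOS (0.94) and IL2RB (0.92). SLAMF1 ran with KCNA2, a voltage-gated potassium channel (0.94), IL2RB (0.89) and GFI1, a transcriptional repressor of blood cells (0.89). These rest in part on the aspirates high for all of them: over the other 13 arrays the r of CD8A was 0.85 with ICOS, 0.76 with IL2 and 0.85 with IL2RB, that of CD28 with ICOS 0.96, and that of SLAMF1 with IL2RB 0.70 (rho 0.43).

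The other 4 genes had other neighbours. KLRD1 ran with ADGRE5, the leukocyte adhesion receptor CD97 (0.89), and DLA-79, a nonclassical class I gene (0.84). FASLG ran with TNFRSF14, the herpesvirus entry mediator (0.96), TAP1 (0.96) and OASL, an interferon-induced gene (0.94), with 0.97, 0.95 and 0.94 over the 13 arrays (rho over all arrays 0.81, 0.78 and 0.85). Its r with MS4A1 was 0.88 (0.93 over the 13, rho 0.68 and 0.89), above that with KLRD1 (0.72) or CD8A. FASLG and MS4A1 were both not well above background in the Rosco skin, Rosco's first biopsy and the second resistant aspirate. These arrays enter the r of FASLG and MS4A1 as background signal. IFNG ran with LOC480600 (0.88), CCL4, a chemokine of activated T and NK cells (0.87), and PRF1 (0.83), values that rest on the few arrays above background (rho 0.59, 0.76 and 0.57). CD4 ran with RAB27A, a regulator of granule release (0.85), FBXO9 (0.84) and WWP2 (0.83), both of them parts of ubiquitin ligases, and not with S100A8 (0.13).

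CD8A is the only gene of the 8 with more than 1 probe. The values above come from the brighter one, which was well above background on all 15 arrays, while the second was on 11 and missed both skin samples, the MalcolmX aspirate and the second resistant aspirate. The second probe read 3.94 after failed chemotherapy, 3.63 in remission, −1.05 in Thai and −3.11, −3.33 and −4.96 in the relapse aspirates, the same order at the top. Its difference between relapse and the earlier aspirates was −7.58, against −6.42 with the first probe, and between Thai and the resistant biopsies 3.85 against 2.65.

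**Figure D5:**
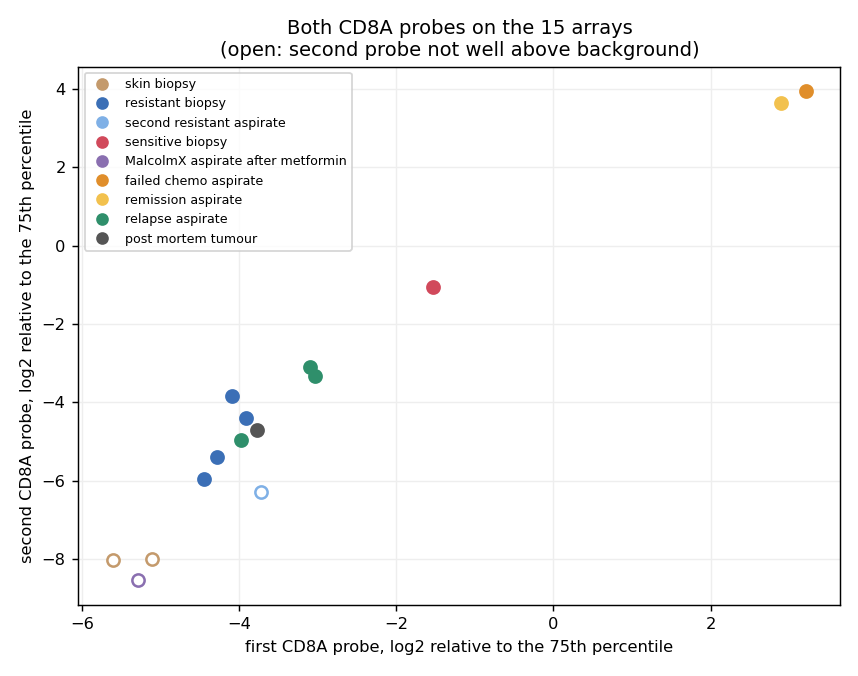
Levels of the second CD8A probe (y axis, log2 relative to the 75th percentile) against the first (x axis, same scale) on the 15 arrays, coloured by group; open points mark the 4 arrays on which the second probe was not well above background. Both probes place the failed chemotherapy and remission aspirates highest and the Thai biopsy next.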

How the data were processed

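RNA of 15 canine samples was labelled with Cy3 and hybridised to 1-colour Agilent arrays (4 slides, 2 scan days). The authors' spot intensities come, per the file headers, from Agilent Feature Extraction 11.0.1.1, also named in the submitters' processing notes, with local background subtracted and no normalization between arrays. Other deposited columns hold flags of 0 or 1 per spot. The deposited series table holds linear intensity, median minus background, equal within 0.01 in 678300 of 678300 cells.

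From the log2 of each processed intensity that of the array's 75th percentile (367.6 to 1240) was subtracted. Outlying spots (2 to 50 per array) were left out, and 0 were saturated. Probes were named through RefSeq identifiers (2186 of 43603), and the brightest probe stood for a target. Tested were targets well above background throughout 1 or more of the groups, with limma 3.58.1 in R 4.3.3, two-sided, Benjamini-Hochberg adjusted over all targets (threshold 0.05). The fit was tested on simulated data. Where a group is 1 array, the spread is that of the other group. "At least" folds set the bright group's mean against the higher of the dim probe's signal and the lowest signal well above background on each array. Precision is limited by how few arrays there are. Alternatives were normalization, background correction, the series table, filter, probe choice, slide, dog and each array left out.

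The 8 genes and all gene lists were chosen with earlier results of these data known. Beside the 8 genes, the rule named up to 4 genes per list with the largest difference past the threshold, otherwise the 2 largest, and 3 genes per member by correlation, among named genes above background on at least 5 arrays. A few further genes (NCR1, S100A8, CXCL8, PRF1 levels, MS4A1 and CA6) were named after their values were seen. Genome positions and sequences were not used here. A gene that the rule took is not reported here.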

Additional observations from a re-analysis of the deposited data

Results flagged for a closer look

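Both dogs with samples around metformin treatment gave a pair of arrays, the remission aspirate against the failed chemotherapy aspirate in Rosco and the aspirate against the biopsy in MalcolmX. For 4 of the 6 genes above background on all of these arrays, the differences had opposite signs in the pairs. CD28 also differed in sign (−2.65 in MalcolmX and 0.40 in Rosco), but was well above background on neither MalcolmX array. The share of all targets with opposite signs is not given here. KLRD1 was at −1.85 (aspirate minus biopsy) in MalcolmX and 0.69 (remission minus failed chemotherapy) in Rosco. CD4 differed by −0.18 in MalcolmX and 0.87 in Rosco, and SLAMF1 by −0.81 and 0.11. FASLG differed by 0.0601 and −0.0047, and its sign did not hold: with the deposited series table both were positive (0.08 and 0.06), and with normexp MalcolmX was at −0.38 and Rosco at 0.09. These 4 genes stand here because they were above background in both pairs and the only array pair of each dog pointed the opposite way. With 1 pair per dog the difference was not tested, and in MalcolmX the way of sampling changed with the treatment. No sample among the 4 resistant biopsies lay apart from the others by Dixon's test for any of the 8 genes, which by chance picks about 1 in 20 such groups. With 4 values the test flags only an extreme gap, so it cannot show that the biopsies are alike. FASLG at −7.17 in the first biopsy of Rosco, against −2.74 to −1.66 in the others, was not flagged. IFNG was well above background on none of the 4.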

How the results depend on the processing

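No difference of the 8 genes that had passed the test changed direction under any alternative run. For resistant biopsies against skin, 104 targets passed, against 8 with normexp, 55 with the series table, 66 with no filter, 32 with slide as a block and 40 within slide 1. With the replicate block on dog, 152 passed as a random block and 0 as a fixed block over the dogs with both tissues (2160 at an unadjusted p under 0.05). Leaving out 1 array gave 5 to 3126: 3126 without the Rosco biopsy, 327 and 321 without the MalcolmX or Rosco skin, and 11, 5 and 21 without MalcolmX, Jake or Dog Y. For the sensitive biopsy, 0 passed under every alternative run. For relapse against the earlier aspirates, 8555 passed, 2497 within slide 4, and 3769 (without remission) to 9760 (without relapse 3) when 1 array was left out, with 5535 without failed chemotherapy and 5641 without relapse 1. For the post-mortem tumour, 0 passed, 393 with normexp, 14 with the mean of probes and 0 to 431 without 1 relapse aspirate (107 without the first, 431 without the third). A scan-day block was not run for relapse, since 1 day held all 5 arrays. The cause of these shifts was not tested. Normexp raised dim levels, so that CD28 in the relapse aspirates was at −2.66 in place of −4.14. CD28 and IFNG, dim on most arrays, are limited by background.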
